A study of Mus musculus with 8 samples.

Results

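Retinoic acid, the signalling form of vitamin A, is made in skin from retinol, and 9 genes of its metabolism were followed here in mouse paw: Adh1, Adh7, Rdh10, Dhrs9, Aldh1a1, Aldh1a2, Aldh1a3, Crabp2 and Cyp26b1. They are 9 of the 22609 genes with a count in each library, taken by gene symbol. Adh7 was chosen on its call between the sexes in these same libraries, and the other 8 were chosen as retinoid genes with the results of that comparison known. The values of these 9 genes between the sexes are therefore a description and carry no test. Paw tissue of C57BL/6J mice was sequenced, 4 libraries from females and 4 from males. Every mouse, of either sex, had received prolactin (PRL), a pituitary hormone with actions well beyond lactation, at 0.1 µg by injection into the paw (i.pl.) on each of 12 days. No library from an untreated or vehicle-injected paw was analysed here, so every value below is from a PRL-treated paw and none shows an effect of PRL. The series is titled as a study of long-lasting prolactin elevation and of sex dependence in pain chronicity, and the comparison its samples allow is female against male. The labels give no age, do not say whether any animals were pooled and name no batch. If any of these libraries share an animal, p-values measure only the spread between the samples.

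As background, retinol is oxidised to retinaldehyde by alcohol dehydrogenases and by retinol dehydrogenases of the short-chain family, and this step is reversible. Retinaldehyde dehydrogenases then oxidise retinaldehyde to retinoic acid, which cannot be turned back. Cellular binding proteins carry retinoic acid to its nuclear receptors, and enzymes of the Cyp26 family hydroxylate it for removal. In the epidermis, retinoic acid is known for its control of keratinocyte differentiation, and both shortage and excess disturb the skin barrier.

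The 8 libraries held 16753528 to 24993744 reads counted in genes in females and 18183645 to 20416187 in males. Xist, the RNA of the inactive X chromosome, and 4 Y-linked genes matched the labelled sex in 8 of 8 libraries. The paw samples were mixed tissue. Keratinocyte markers, mainly Krt2 and Krt10, summed to 74666 to 109181 CPM, read counts scaled to a common library total, in females and to 90810 to 117515 CPM in males. Fast skeletal muscle markers ran from 36.5 to 21967 CPM in females and from 982 to 29412 CPM in males. In such bulk samples, fewer cells of a type and less RNA per cell cannot be told apart. Levels below are CPM after TMM scaling, a normalisation that evens out differences in library composition, and the 4 values of each sex are in replicate order.

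The promoters of Adh7, Adh1 and Dhrs9 are printed because these were the 3 of the 9 genes whose female and male libraries did not overlap. Each window runs from 250 bases before to 50 bases after the RefSeq transcript start on the plus strand of GRCm38.p6. The Adh7 window is chr3:138217523-138217822, the Adh1 window chr3:138277335-138277634 and the Dhrs9 window chr2:69380212-69380511. Capitals mark 3 kinds of letters that a search found: an AP-1 motif, the letters TATAAA on the gene's strand, and a nuclear receptor half-site on either strand. The AP-1 motif reads TGACTCA on one strand and, on the opposite strand, TGAGTCA. The half-site reads AGGTCA and, when it lies on the opposite strand, TGACCT.
Adh7: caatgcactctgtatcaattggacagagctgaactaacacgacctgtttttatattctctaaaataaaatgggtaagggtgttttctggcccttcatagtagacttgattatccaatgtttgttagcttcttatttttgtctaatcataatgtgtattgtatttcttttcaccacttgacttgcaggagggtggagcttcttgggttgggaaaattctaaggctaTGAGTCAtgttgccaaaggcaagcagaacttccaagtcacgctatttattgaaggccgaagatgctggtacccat
Adh1: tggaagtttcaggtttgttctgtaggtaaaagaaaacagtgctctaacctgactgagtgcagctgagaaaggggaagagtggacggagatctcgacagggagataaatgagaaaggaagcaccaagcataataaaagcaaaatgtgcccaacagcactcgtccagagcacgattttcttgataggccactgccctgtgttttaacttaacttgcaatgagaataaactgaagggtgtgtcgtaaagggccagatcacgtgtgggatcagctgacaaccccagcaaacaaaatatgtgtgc
Dhrs9: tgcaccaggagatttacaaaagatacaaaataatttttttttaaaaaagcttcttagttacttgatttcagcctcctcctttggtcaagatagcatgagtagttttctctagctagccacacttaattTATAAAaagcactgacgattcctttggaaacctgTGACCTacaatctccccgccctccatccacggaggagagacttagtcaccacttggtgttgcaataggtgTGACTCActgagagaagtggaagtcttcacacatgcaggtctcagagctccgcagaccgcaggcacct

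The Adh7 window held 1 AP-1 motif, TGAGTCA, whose first base lay at position -25 relative to the start. The Dhrs9 window held an AP-1 motif, TGACTCA, at -18, a TATAAA at -122 and a half-site on the reverse strand at -88. The Adh1 window held none of the 3. RefSeq windows were matched for 6 of the 9 genes, with 7 windows in all; Crabp2, Rdh10 and Aldh1a3 are only named. AP-1 motifs stood in 3 of the 7 windows (Adh7, Dhrs9 and Aldh1a1) and in 5.2% of all 32851 windows. TATAAA stood in 2 of the 7 windows and in 8.32% of all, and AGGTCA in 1 of the 7 and in 16.3% of all. The steroid receptor palindrome (AGAACA, 3 bases, TGTTCT) was in none of the 7 and in 0.00913% of all. Retinoic acid receptors are known to bind direct repeats of a half-site, so such repeats with a spacer of 1, 2 or 5 bases were searched on both strands. Each half-site could read AGGTCA or AGTTCA. It could also read GGGTCA or GGTTCA. None of the 7 windows held such a repeat, against 193 of 32851 windows, or 0.588%. The same search found a repeat with a spacer of 5 in Rarb, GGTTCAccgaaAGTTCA, and in Cyp26a1, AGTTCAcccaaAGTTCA on the reverse strand. These were the only 2 of 61 windows, from 41 other genes of the pathway, that held such a repeat. These letter matches describe 300 bases around each start and do not show binding.

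Adh7, Adh1 and Dhrs9, all enzymes that can oxidise retinol, were lower in females than in males in every pair of libraries. Adh7 encodes class IV alcohol dehydrogenase, an enzyme of surface epithelia with high activity toward retinol. Adh7 had 55.4, 68.3, 71.0 and 59.5 CPM in females, against 112, 111, 135 and 147 CPM in males. The highest female library lay below the lowest male library. The means were 63.6 ± 7.33 CPM in females and 126 ± 17.5 CPM in males (n = 4 each, SD), with a log2 fold change, female over male, of -0.99 (SE 0.12). Between 941 and 1609 reads stood behind each female value and between 2080 and 2994 behind each male value, so depth does not limit this gene. As a description of the choice of genes, Adh7 was the 1 of the 9 called by edgeR at an adjusted p of 0.05, as were 0.0947% of the 14790 genes tested (14 genes). DESeq2, which called 0.651% of the 17054 genes it tested, also called Adh1 and Dhrs9. The edgeR call of Adh7 was absent when any 1 of the 8 libraries was left out, while its log2 fold change stayed between -1.06 and -0.91.

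Adh1 encodes the class I enzyme, the main alcohol dehydrogenase of liver, which also clears excess retinol. Adh1 had 48.3, 66.7, 59.7 and 57.4 CPM in females, against 76.7, 82.0, 92.4 and 83.2 CPM in males. These groups did not overlap either, although the difference was smaller than that of Adh7. The means were 58.0 ± 7.57 CPM in females and 83.6 ± 6.54 CPM in males (n = 4 each, SD), with a log2 fold change of -0.53 (SE 0.11). Dhrs9 is a short-chain dehydrogenase whose human and rat forms oxidise retinol and also act on 3-alpha-hydroxysteroids. Dhrs9 had 12.4, 14.2, 17.0 and 11.9 CPM in females, against 24.6, 17.6, 22.5 and 21.1 CPM in males. The groups came close at female replicate 3 and male replicate 2 but did not overlap. The log2 fold change was -0.63 (SE 0.15), with means of 13.8 ± 2.29 CPM in females and 21.5 ± 2.94 CPM in males.

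Rdh10, the retinol dehydrogenase that supplies most retinaldehyde in the mouse embryo, leaned the other way. It had 34.8, 42.7, 48.4 and 35.3 CPM in females, against 35.3, 31.9, 32.1 and 31.0 CPM in males. Female replicate 1, at 34.76 CPM, and female replicate 4, at 35.29 CPM, lay just below male replicate 1, at 35.33 CPM. The groups overlapped at these libraries. The means were 40.3 ± 6.51 CPM in females and 32.6 ± 1.89 CPM in males, with a log2 fold change of 0.31 (SE 0.12).

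**Figure D1:**
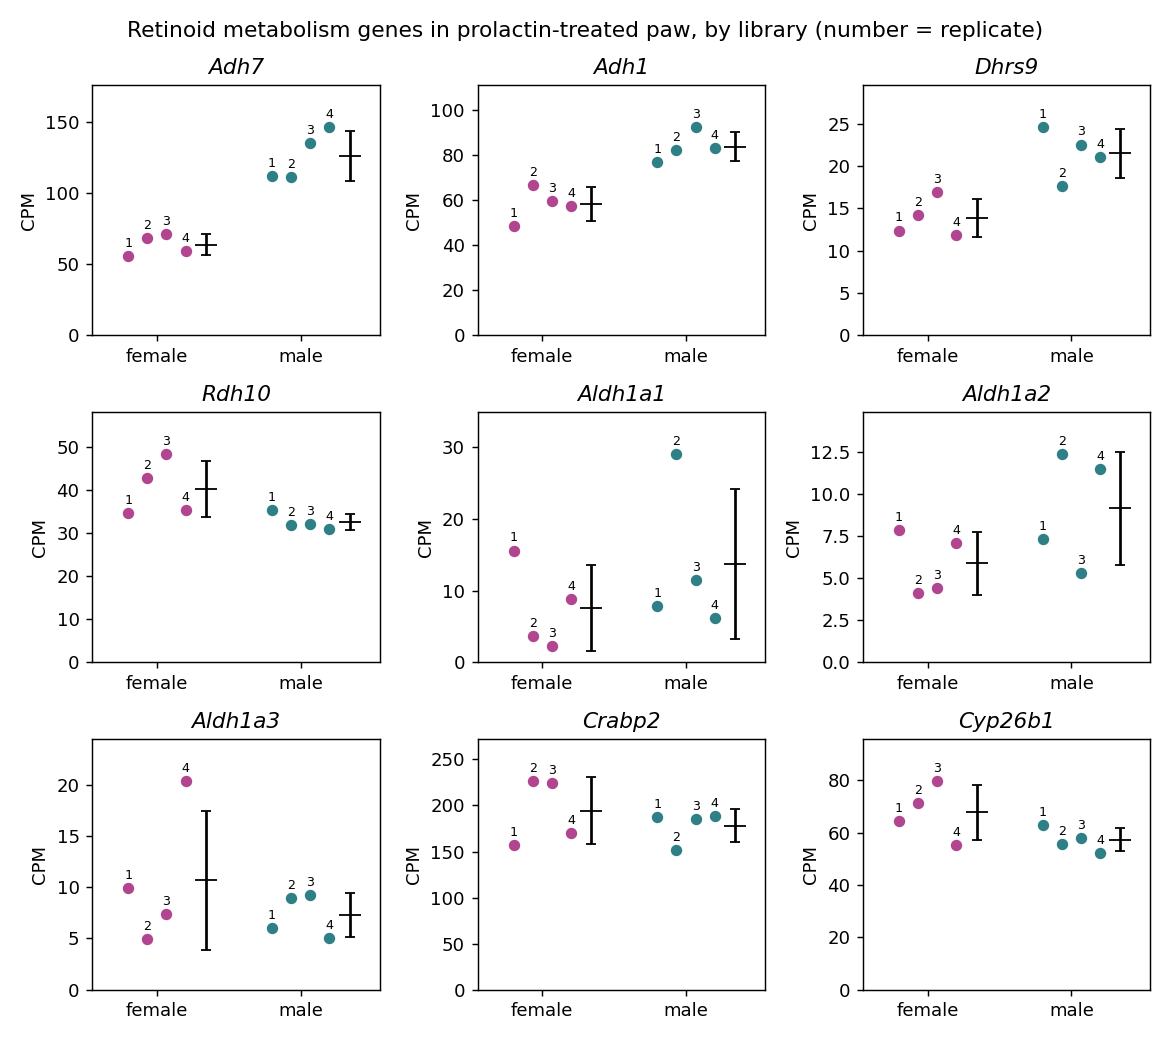
Level of each of the 9 genes (CPM after TMM scaling, vertical axis of each panel) in the 4 female libraries (left) and the 4 male libraries (right). Each point is a library and each bar the mean with its SD. Adh7, Adh1 and Dhrs9 separate the sexes, with all 4 females below all 4 males, while the 3 Aldh1a genes spread widely within each sex.

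The 3 retinaldehyde dehydrogenases, which make retinoic acid itself, ranged widely within each sex and overlapped between the sexes. Aldh1a1, the cytosolic enzyme found in many adult epithelia, had 15.6, 3.74, 2.25 and 8.79 CPM in females, against 7.91, 29.0, 11.5 and 6.22 CPM in males. It was highest in male replicate 2 and lowest in female replicate 3, and the groups overlapped over most of their range. Its means were 7.58 ± 6.00 CPM in females and 13.7 ± 10.5 CPM in males, and its log2 fold change was -0.85 (SE 0.70). Without male replicate 2 that fold change was -0.20, and without female replicate 1 it was -1.47. Reads from Aldh1a1 and from its close copy Aldh1a7 may be hard to assign, since reads with several placements were not counted.

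Aldh1a2, the main retinaldehyde dehydrogenase of the embryo, had 7.89, 4.16, 4.41 and 7.10 CPM in females, against 7.36, 12.4, 5.35 and 11.5 CPM in males. Male replicates 2 and 4 lay above every female library, and male replicates 1 and 3 lay among them. The log2 fold change was -0.64 (SE 0.32), with means of 5.89 ± 1.88 CPM in females and 9.16 ± 3.36 CPM in males. Aldh1a3, known from the developing eye and face, had 9.96, 4.99, 7.37 and 20.4 CPM in females, against 5.97, 8.93, 9.22 and 4.996 CPM in males. Female replicate 4 stood apart from the other female libraries, which spanned the whole range of the males. Its means were 10.7 ± 6.77 CPM in females and 7.28 ± 2.11 CPM in males. The log2 fold change was 0.55 (SE 0.43) with all libraries and 0.02 without female replicate 4.

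Divided by exon length, the 3 enzymes can be summed. The sum was 12.2, 4.52, 4.55 and 11.4 CPM per kb in females, against 7.90, 19.6, 9.24 and 8.81 CPM per kb in males. Female replicates 2 and 3 had the lowest sums and male replicate 2 the highest, and the sexes overlapped. Aldh1a1 made up 20.6% to 53.1% of the sum in females and 29.5% to 61.8% in males. Aldh1a2 made up 27.5% to 42.8% in females and 25.5% to 57.7% in males. The share of Aldh1a3 was 30.0% ± 10.2 in females and 15.6% ± 5.34 in males (n = 4 each, SD), also with overlap. The mixture of the 3 enzymes differed from library to library within either sex, and no single one of them made up most of the sum in every library.

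**Figure D2:**
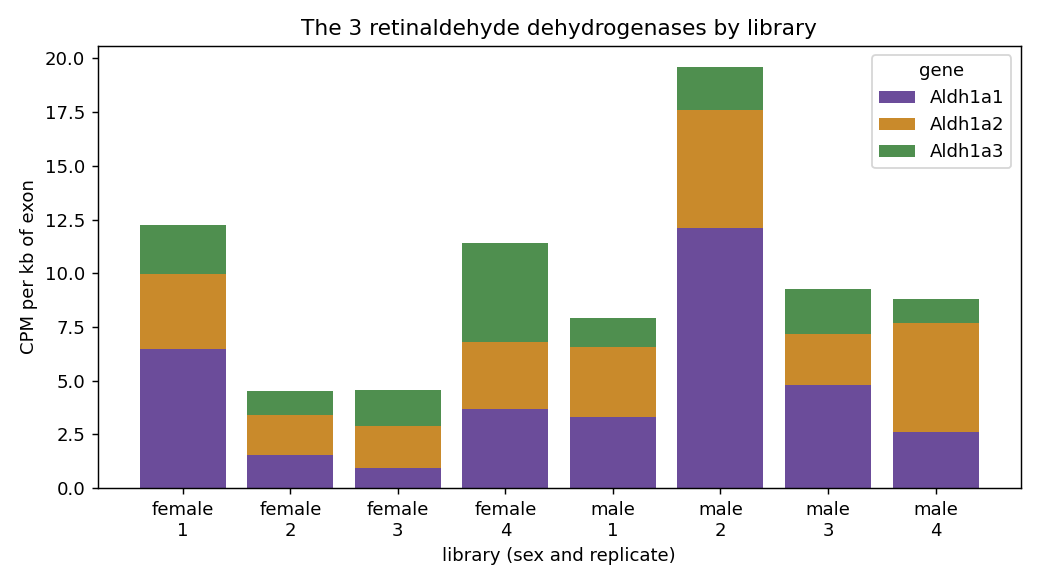
Levels per kb of exon of Aldh1a1, Aldh1a2 and Aldh1a3 (CPM per kb, vertical axis, stacked from 0) in the 4 female libraries (left) and the 4 male libraries (right). The stacks reach 4.52 to 12.2 in females and 7.90 to 19.6 in males, and the part taken by each enzyme changes from library to library.

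Crabp2, which carries retinoic acid to its receptors in the nucleus, was the most abundant of the 9 per unit length. It had 157, 227, 225 and 170 CPM in females, against 187, 151, 185 and 188 CPM in males. The lowest values were in male replicate 2, female replicate 1 and female replicate 4, and the groups overlapped. The means were 194 ± 36.3 CPM in females and 178 ± 17.7 CPM in males, with a log2 fold change of 0.13 (SE 0.14). Cyp26b1, the retinoic acid hydroxylase of skin and limb, had 64.6, 71.4, 79.8 and 55.2 CPM in females, against 62.9, 55.8, 58.1 and 52.3 CPM in males. Female replicates 1, 2 and 3 lay above every male library and female replicate 4 lay among the males. The log2 fold change was 0.24 (SE 0.12), with means of 67.7 ± 10.4 CPM in females and 57.3 ± 4.44 CPM in males.

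In all, 4 of the 9 genes had a log2 fold change above 0 and 5 below, with a median of -0.53, beside a median of 0.01 over all 14790 genes tested. The groups did not overlap, with females lower, for 3 of the 9, as for 1.81% of all genes tested. None of the 9 was higher in females without overlap, as 2.93% of all genes were. Because the genes were chosen with this comparison in view, nothing is read from these shares.

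**Figure D3:**
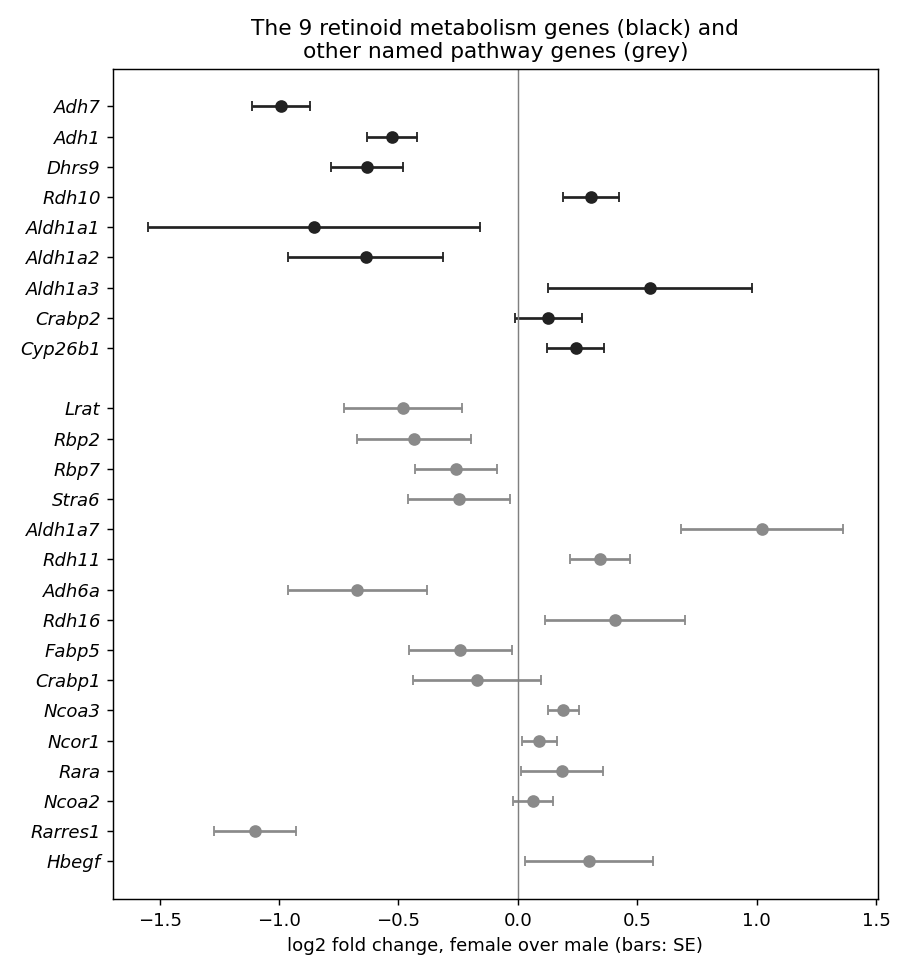
Log2 fold change, female over male, with its SE (horizontal axis) for the 9 genes and for the other named genes of the retinoid pathway (vertical axis). Adh7 at -0.99 and Rarres1 at -1.10 lie farthest below 0 for their size of error, and Aldh1a1, with an SE of 0.70, is the least certain of the 9.

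Set in order of level per kb, the 9 genes ran from Crabp2 at 200 CPM per kb over the 8 libraries, through Adh1 at 47.5, Adh7 at 27.7, Cyp26b1 at 11.7, Rdh10 at 10.2, Aldh1a1 at 4.43, Dhrs9 at 4.12 and Aldh1a2 at 3.32, to Aldh1a3 at 2.02. Each of the first 4 exceeded the next in 8 of 8 libraries, and Rdh10 exceeded Aldh1a1 in 7. Aldh1a1 exceeded Dhrs9 in 3 libraries and Dhrs9 exceeded Aldh1a2 in 4, so these 3 neighbours did not differ beyond their spread. Aldh1a2 exceeded Aldh1a3 in 7 of 8. The mean levels per kb of Adh1 and Adh7, which oxidise retinol, were several times those of the 3 enzymes that make retinoic acid. The same order was found with the length of the longest transcript. Lengths came from a mouse annotation of a later genome build than the counts, so levels per kb are approximate.

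Adh7 can also be set beside its own family. Adh5 encodes the class III enzyme, which clears formaldehyde and is found in most cells, and Adh6a is a minor class V relative. Of the summed level per kb of Adh1, Adh7, Adh5 and Adh6a, Adh7 made up 18.4% ± 2.14 in females and 26.9% ± 2.99 in males (n = 4 each, SD). The female shares, 16.5% to 20.9%, lay below the male shares, 24.3% to 31.1%. The Adh1 share was 38.7% ± 4.42 in females and 41.0% ± 0.818 in males, with overlap, and the Adh5 share was 42.3% ± 6.27 in females and 31.5% ± 2.99 in males, without overlap. The level of Adh5 itself was 68.2 CPM in females and 68.9 CPM in males, with overlap, so its higher share in females comes with the lower levels of Adh7 and Adh1 in the same sum. The ratio of Adh7 to Adh1 per kb was 0.446 to 0.517 in females and 0.589 to 0.767 in males, so Adh7 was lower in females relative to Adh1 too. In the RefSeq order of chromosome 3 the genes follow each other as Adh7, Adh1, Adh6a, Adh6b, Adh4 and Adh5, with 4930579F01Rik on the far side of Adh7 and Metap1 beyond Adh5. Of the 4 that were tested, the neighbours Adh7 and Adh1 had no overlap between the sexes, with females lower, as had 1.81% of all genes tested. Both were chosen with this comparison in view, so nothing is read from their being neighbours. Adh6a, at a mean of 1.43 CPM in females and 2.29 CPM in males, and Adh5, at the other end of the run, overlapped. Adh4 was too low to test, and no level of Adh6b was available.

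The 9 genes also differed in how much they varied within a sex. For Adh7 this spread entered the call on which it was chosen, so its own value is only a description. The biological coefficient of variation from edgeR, taken about the mean of each sex, was 66.3% for Aldh1a1, the 496th most variable of 14790 genes. It was 43.3% for Aldh1a3 and 34.2% for Aldh1a2, at ranks 1222 and 2134. The other 6 genes had values of 14.8% to 19.6%, at ranks 7316 to 11773, that is, in the middle and the steadier part of all genes. The highest library was 12.9 times the lowest for Aldh1a1, 4.08 times for Aldh1a3 and 2.98 times for Aldh1a2. For Crabp2, Cyp26b1 and Rdh10 it was 1.50, 1.52 and 1.56 times.

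These values can be set beside the cell type markers of the same libraries. Aldh1a1 was highest in male replicate 2 and female replicate 1, where the 16 fast muscle markers summed to 29412 and 21967 CPM, and lowest in female replicate 3, where they summed to 36.5 CPM. Male replicate 2 and female replicate 1 were also high in endothelial markers, at 546 and 464 CPM, and in Schwann cell markers, at 821 and 788 CPM. Neither of these lists was lowest in female replicate 3. With a muscle score as a covariate, the log2 fold change of Aldh1a1 was -0.47 (SE 0.32). With a keratinocyte score it was -1.51 (SE 0.32). Aldh1a3 was highest in female replicate 4. That library also had the highest sums of the 10 fibroblast markers, 17614 CPM, of the 10 macrophage markers, 1519 CPM, and of the 8 mast cell markers, 301 CPM. Its sums of endothelial, dendritic cell and T cell markers, 560, 2235 and 153 CPM, were the highest too. Of the T cell sum, 142 CPM was Thy1, which is also on the fibroblast list. On the dendritic cell list, Cd207 and Epcam, at 23.6 and 65.8 CPM, were higher in female replicate 3, at 46.1 and 110 CPM. The other markers of that list were highest in female replicate 4. The sums of the remaining lists were highest in other libraries. The other libraries held 7428 to 15873 CPM of fibroblast markers, 451 to 1016 CPM of macrophage markers and 80.9 to 165 CPM of mast cell markers. Crabp2 was lowest in the 3 libraries with the lowest keratinocyte sums: female replicate 1 at 74666 CPM, female replicate 4 at 74750 CPM and male replicate 2 at 90810 CPM. The part of these cell types in the levels was not tested.

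For the keratinocyte list, 17 of 18 markers were in the files, none was at 0 throughout and 12 of the 17 had a log2 fold change below 0, as did 47.3% of all genes tested. By edgeR, 0 were called at an adjusted p of 0.05 and 3 had an unadjusted p under 0.05, as did 6.53% of all genes. Per 1000 CPM of keratinocyte markers, Adh7 stood at 0.630 to 0.796 CPM in females and at 0.954 to 1.33 CPM in males. Dhrs9 stood at 0.131 to 0.166 CPM in females and at 0.180 to 0.222 CPM in males. These 2 genes kept the sexes apart on this scale, while Adh1, at 0.547 to 0.768 CPM in females and 0.653 to 0.911 CPM in males, overlapped. Crabp2 per 1000 CPM of keratinocyte markers was 2.06 to 2.27 CPM in females and 1.60 to 1.82 CPM in males. Rdh10 was 0.394 to 0.472 CPM in females and 0.265 to 0.352 CPM in males, and Cyp26b1 was 0.659 to 0.866 CPM in females and 0.447 to 0.615 CPM in males. These 3 did not overlap on this scale, with females higher, unlike on the CPM scale. The marker sum itself tended lower in females, at 74666 to 109181 CPM against 90810 to 117515 CPM in males, with overlap. A lower sum raises every gene on this scale. The share of all genes without overlap on this scale was not computed, so nothing specific to these genes is read from it. The sum is mostly Krt2 and Krt10, and Krt10 itself had a log2 fold change of -0.42.

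**Figure D4:**
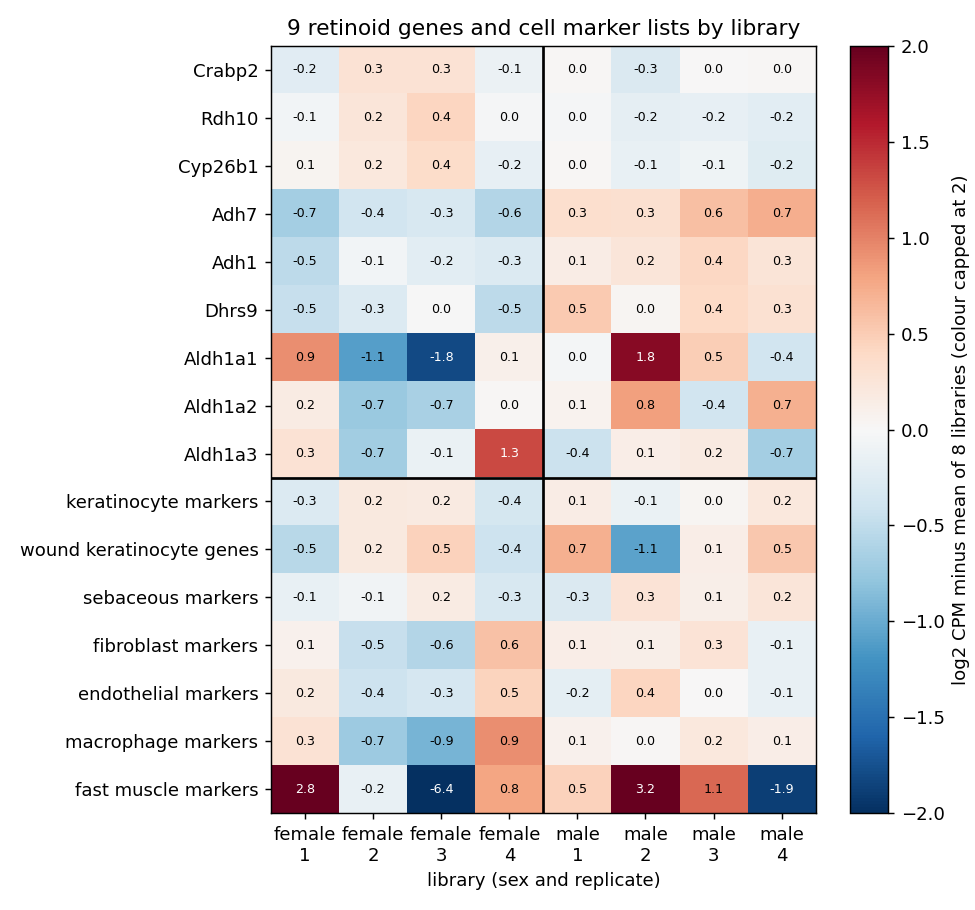
Log2 CPM of each of the 9 genes, and mean log2 CPM over the markers of 7 lists (rows), minus the row's mean over the 8 libraries, by library (columns, the 4 females left of the 4 males). Blue is below and red above the mean, with colours ending at 2 on either side. Aldh1a1 is highest in male replicate 2 and female replicate 1 and lowest in female replicate 3, and the fast muscle markers are also highest in those 2 libraries and lowest in female replicate 3.

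Among the rest of the pathway, taken from lists of 61 genes, 58 were in the files and 47 were tested. None was called by edgeR at an adjusted p of 0.05, and 5 had an unadjusted p under 0.05, as did 6.53% of all 14790 genes. DESeq2 called 1, Rarres1, against 0.651% of the genes it tested, and limma-voom, which called 0.108% of all genes, called none. Of the 47, 19 had a log2 fold change above 0 and 28 below, with a median of -0.03. Libraries did not overlap for 1 gene that was lower in females, Rarres1, and for 1 that was higher, Ncoa3, close to the 1.81% and 2.93% of all genes. The 4 genes with the smallest p of each list are given below with their adjusted p over all genes.

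On uptake and storage of retinol, 4 of 11 tested genes were above 0 and 7 below. Rbp2, a cellular retinol-binding protein best known from the intestine, averaged 33.3 ± 11.1 CPM in females and 45.0 ± 7.18 CPM in males, and its log2 fold change was -0.44 (SE 0.24, edgeR adjusted p = 0.841). Its relative Rbp7 averaged 84.8 ± 19.2 CPM in females and 102 ± 13.2 CPM in males (edgeR adjusted p = 0.906). Lrat, which stores retinol as esters, averaged 1.68 CPM in females and 2.35 CPM in males (edgeR adjusted p = 0.813). Stra6, the membrane receptor for circulating retinol-binding protein, differed by -0.25 (SE 0.21) on the log2 scale, and the edgeR adjusted p was 0.972. Per kb, Rbp7 at 151 and Rbp2 at 48.1 CPM per kb stood far above Stra6 at 2.04 and Lrat at 0.376.

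Of the other alcohol, retinol and retinal dehydrogenases and reductases, 6 of 16 were above 0 and 10 below. Aldh1a7 averaged 4.18 ± 1.40 CPM in females and 2.06 ± 0.815 CPM in males. Its log2 fold change was 1.02 (SE 0.34) and the edgeR adjusted p was 0.650. Female replicate 1, at 2.53 CPM, lay below male replicate 4, at 3.23 CPM, so the groups overlapped. Rdh11, which reduces retinaldehyde, averaged 81.7 ± 12.7 CPM in females and 64.4 ± 7.71 CPM in males (log2 fold change 0.34, SE 0.13, edgeR adjusted p = 0.700). For Adh6a the log2 fold change was -0.67 (SE 0.29, edgeR adjusted p = 0.761) and for Rdh16, a retinol dehydrogenase with close copies in Rdh1 and Rdh9, it was 0.41 (SE 0.29, edgeR adjusted p = 0.920). The most abundant oxidoreductases per kb were Sdr16c5 at 157 and Sdr16c6 at 139 CPM per kb, which are retinol dehydrogenases of epidermis, followed by Rdh12 at 92.1 CPM per kb. All 3 exceeded the mean levels of Adh1 and Adh7.

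Among binding proteins, Fabp5, which can carry retinoic acid to another class of nuclear receptor, averaged 556 ± 151 CPM in females and 657 ± 122 CPM in males (edgeR adjusted p = 0.981). Crabp1, the sister protein of Crabp2, differed by -0.17 on the log2 scale, with an SE of 0.27 (edgeR adjusted p = 0.999). Fabp5 stood at 614 CPM per kb and Crabp1 at 25.3, on either side of Crabp2 at 200. Of the Cyp26 enzymes, Cyp26b1 was the 1 that was tested. Cyp26a1 was too low, with 1.94, 0.185, 0.265 and 0.463 CPM in females, against 0.0995, 2.35, 0.327 and 0.294 CPM in males. Its highest libraries were male replicate 2 and female replicate 1, as for Aldh1a1.

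Of the 12 receptors and co-regulators, all tested, 7 were above 0 and 5 below. Rarg, the main retinoic acid receptor of epidermis, stood at 68.1 CPM per kb and its partner Rxra at 48.9, against 7.19 for Rara and 0.731 for Rarb. Ncoa3, a receptor co-activator, averaged 95.8 ± 5.37 CPM in females and 83.9 ± 3.69 CPM in males, without overlap. Its log2 fold change was 0.19 (SE 0.07) and the edgeR adjusted p was 0.669. The log2 fold changes of Rara, Ncor1 and Ncoa2 were 0.19, 0.09 and 0.06, with edgeR adjusted p = 0.985, 0.955 and 0.999.

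**Figure D5:**
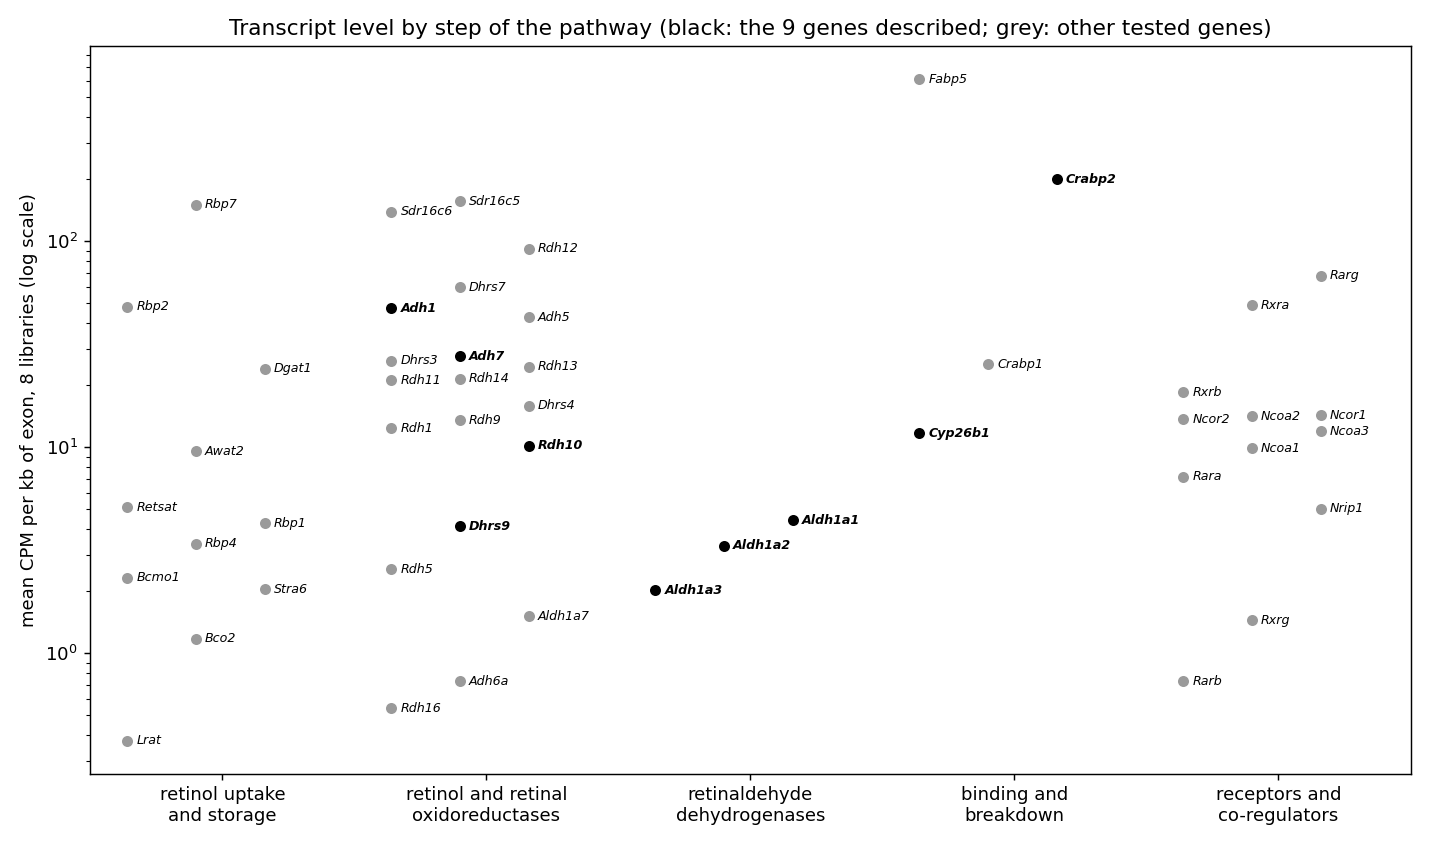
Mean level per kb of exon over the 8 libraries (CPM per kb, log scale, vertical axis) for the tested genes by step of the pathway (horizontal axis), with the 9 genes in black and the others in grey. Crabp2 at 200 and Fabp5 at 614 top the binding proteins, Adh1 and Adh7 lie in the upper part of the oxidoreductases, and the 3 Aldh1a genes lie at 2.02 to 4.43.

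Of the genes listed as retinoic acid targets, which also include Lrat and Stra6, 4 of 11 tested were above 0 and 7 below. Rarres1, named in human skin as a gene raised by a synthetic retinoid, had 60.4, 86.1, 88.9 and 68.7 CPM in females, against 120, 183, 173 and 178 CPM in males. All 4 females lay below all 4 males, and male replicate 1 was the lowest of its group. The means were 76.0 ± 13.7 CPM in females and 163 ± 29.4 CPM in males, and the log2 fold change was -1.10 (SE 0.17). The edgeR adjusted p was 0.115 and the limma-voom adjusted p 0.122, whereas the DESeq2 adjusted p was 5.76e-06, so the call depends on the tool. Per 1000 CPM of keratinocyte markers, Rarres1 stood at 0.794 to 0.919 CPM in females and at 1.02 to 2.01 CPM in males. Hbegf, a growth factor of keratinocytes, differed by 0.30 on the log2 scale, with an SE of 0.27 (edgeR adjusted p = 0.981). Of the same targets, Cdx1 and Stra8 had no count in any library.

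To see which genes had a pattern like that of Adh7, 13265 genes with a mean of at least 2 CPM were ranked by the root mean square difference in log2 CPM over the 8 libraries. Centred on the mean of all libraries, the 5 nearest were Gng4 at 0.149, Aox3 at 0.159, Fam81a at 0.162, 9930013L23Rik at 0.169 and Pla2g4e at 0.177. All 5 were lower in females without overlap, which this measure favours because the sex difference of Adh7 is part of its pattern. Pla2g4e, a phospholipase, averaged 84.7 ± 15.3 CPM in females and 148 ± 14.5 CPM in males. Centred on the mean of each sex, so that only the spread within a sex counted, the 5 nearest were Lpar2 at 0.0325, Nudt2 at 0.0400, Taf1b at 0.0435, Csad at 0.0451 and Vill at 0.0557. All 5 of these overlapped between the sexes, and no gene was in both sets of 5.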

How the data were processed

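Libraries were made from paw RNA with a stranded poly(A) kit and sequenced as single-end reads of 50 bases, per the labels' protocols. The authors deposited whole-number counts per gene, unnormalised. The tools were TopHat2, HTSeq and bcl2fastq, on mm9, per the submitters' processing notes. With versions, annotation and strand setting not given in the sources used here, overlapping antisense genes cannot be told apart. Rows naming no gene were left out. Reads in no feature made up 18.0% to 21.1% and ambiguous reads 0.198% to 0.231%. Entries counted as not aligned uniquely made up 45.2% to 48.7% of all entries. A read with several placements may enter that count more than once, so this need not be a share of reads. These percentages need not share a denominator and should not be added. Since reads not aligned uniquely were left out of the gene counts, near-identical copies are uncertain. No 2 libraries of the same sex agreed within sampling noise (chi-square over its degrees of freedom at least 13.2).

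The 14790 genes passing filterByExpr were fitted in R 4.3.3 with edgeR 4.0.16 (TMM, robust quasi-likelihood test, sex as the factor, 4 libraries each), with Benjamini-Hochberg adjustment over all of them at 0.05. The fit was tested on simulated data. The 9 members, the pathway and marker lists and the tests were chosen with earlier results of these data known. Named genes are the 9, any other pathway gene called, the 4 of each list with the smallest p, and the 5 nearest to Adh7 by each centring. Alternatives used DESeq2 1.42.0, limma 3.58.1, other scalings and filters, marker scores, and libraries left out. Exon lengths came from GENCODE M21 and promoters and gene order from RefSeq on GRCm38.p6, not mm9.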

Additional observations from a re-analysis of the deposited data

Results flagged for a closer look

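In 2 of 78 groups of 4 libraries examined, 1 library stood apart from the other 3 of its sex, which chance alone gives in about 1 of 20 groups. Crabp2 was at 7.244 log2 CPM in male replicate 2, against 7.53 to 7.556 in the other males. Rarres1 was at 6.902 log2 CPM in male replicate 1, against 7.434 to 7.514 in the other males.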

How the results depend on the processing

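Over all genes, edgeR called 14 at an adjusted p of 0.05. DESeq2 called 111 (54 higher and 57 lower in females), the fit with a keratinocyte score as a covariate 160 (88 higher, 72 lower) and the fit with a replicate block 7 (2 higher, 5 lower). All 14 genes were among the calls of DESeq2 and of the keratinocyte score, and 7 among those of the block. Leaving out 1 library gave 8 to 16 calls, with 8 without male replicate 3 and 8 without male replicate 4. Libraries with the same number did not vary together (correlations of -0.308 to -0.0911), which gave no sign of pairing. These correlations cannot exclude it, since they also follow tissue content. Female replicate 1 and male replicate 2, the libraries richest in fast muscle markers, correlated at 0.774. Of the other retinoid pathway genes, edgeR called 0, DESeq2 1, the keratinocyte covariate 1, and the fits with 1 library left out 0 to 1, with 1 without male replicate 1; each time the gene was Rarres1. The cause of these changes was not tested. Over the 18 alternatives none of the 9 genes reversed its direction. The call of Adh7 was absent with the replicate block, with upper quartile scaling and with each library left out, and its log2 fold change was -1.05 with the muscle score and -0.92 with the keratinocyte score. DESeq2 also called Adh1 and Dhrs9, which no other alternative did; Adh1 ran from -0.60 to -0.45 and Dhrs9 from -0.74 to -0.54. Aldh1a1 ran from -1.51, with the keratinocyte score, to -0.20, without male replicate 2, and Aldh1a3 from 0.02 to 0.79. With 4 libraries a sex, the SE of the 9 log2 fold changes ran from 0.11 to 0.70.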
